A study of Rattus norvegicus with 16 samples.

Results

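The SLC4 family comprises membrane proteins that carry bicarbonate or related ions across cell membranes. Its members were taken by name: 9 genes (Slc4a1, Slc4a2, Slc4a3, Slc4a4, Slc4a5, Slc4a7, Slc4a8, Slc4a10 and Slc4a11) were looked up by symbol among the 32623 genes of the count table (22082 with a count), and all 9 were found. A further family gene, Slc4a9, is given beside them. Of the 9 members, 6 had enough counts to be tested in each comparison. The study asked how an acid environment alters gene expression in tubule cells and fibroblasts of the kidney that share a medium. Both lines derive from the kidney of normal rats. The study uses NRK-52E as epithelial tubule cells and NRK-49F as fibroblasts. NRK-52E cells grew on filter inserts hung above NRK-49F cells, without serum for 24 h and then for 48 h in medium of pH 7.4 (control) or pH 6.0 (acidosis). RNA was sequenced from each line separately. All 4 groups were therefore in co-culture, and each had 4 libraries: NRK-52E at pH 7.4 (N1, N2, N5, N6), NRK-52E at pH 6.0 (N3, N4, N7, N8), NRK-49F at pH 7.4 (N9, N10, N13, N14) and NRK-49F at pH 6.0 (N11, N12, N15, N16). The treatment protocol gives these pH values, which the labels shorten to 7 and 6. The labels do not say whether the libraries of a group came from separate cultures, so p-values measure only the spread between these libraries. Libraries of both lines may come from the same wells, which the labels do not pair, and comparisons between lines treat them as independent.

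Cells keep their internal pH by moving acid and base equivalents in opposite directions. Exchangers of the SLC4 family that trade internal bicarbonate for chloride load the cell with acid. Cotransporters that couple bicarbonate to sodium mostly bring base in and so remove acid, although the electrogenic form of the proximal tubule carries bicarbonate out to the blood side and returns filtered base to the body. The family falls into these groups. Slc4a1 (AE1, the band 3 protein of red cells and of acid-secreting intercalated cells), Slc4a2 (AE2, found in most tissues) and Slc4a3 (AE3, best known from heart and brain) are sodium-independent anion exchangers. Slc4a4 (NBCe1) and Slc4a5 (NBCe2) are electrogenic sodium bicarbonate cotransporters. Slc4a7 (NBCn1) is electroneutral, Slc4a8 (NDCBE) exchanges chloride for sodium and bicarbonate, and Slc4a10 (NBCn2, also NCBE) is a sodium-dependent carrier best known from brain. Slc4a11, known from the corneal endothelium, conducts protons or their equivalents and is not regarded as a bicarbonate carrier.

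Levels are given as FPM, fragments per Mio of counted fragments (edgeR's cpm) with TMM factors over the 16 libraries. FPM is not corrected for gene length, so levels of members were compared between groups of one gene and not between genes. Where a gene is said to lead a marker list or make up most of it, this is by uncorrected FPM. Library totals were between 17760185 and 20612657 counted fragments for NRK-52E at pH 7.4, and between 16844811 and 23856187 at pH 6.0. For NRK-49F they were between 17518187 and 27607214 at pH 7.4, and between 16201084 and 34784862 at pH 6.0. A gene was called when its false discovery rate (FDR) was below 0.01 in both edgeR and DESeq2, with the same sign. Fold changes are edgeR's, on the log2 scale, with their standard error (SE). Single members were also compared by exact permutation, two-sided, on log2(FPM + 1), and the smallest p that 4 against 4 libraries allow is 0.0286. The table's column names also carry a number of no stated meaning, 21 (N1 to N4) or 22 (N5 to N8) in NRK-52E and 20 (N9 to N12) or 21 (N13 to N16) in NRK-49F, and values within each number are given as for a possible batch. Each pair of groups described as not overlapping reached exactly that permutation p.

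Marker lists were set against the labelled lines. In NRK-52E libraries the 10 epithelial markers summed to between 433 and 508 FPM at pH 7.4 and between 302 and 364 FPM at pH 6.0, most of it Krt8. NRK-49F libraries held 785 to 949 FPM of the same list at pH 7.4 and 199.6 to 221 FPM at pH 6.0, again led by Krt8. The junction gene Ocln had a mean of 41.2 FPM in NRK-52E at pH 7.4 and 9.67 FPM at pH 6.0, and at most 0.332 FPM in any NRK-49F library. Cdh1 reached a mean of 1.62 FPM in NRK-52E at pH 7.4, Esrp1 was at 0 counts in all 16 libraries, and Epcam and Cldn7 were at or near 0 in all of them. Of the epithelial markers, 4 were tested in NRK-52E and all 4 fell at pH 6.0, while in NRK-49F 1 of 2 fell. For comparison with this and the later marker lists, 28.5% of 13735 genes tested for NRK-52E were called lower at pH 6.0. The matching share for NRK-49F was 19.4% of 13339 genes. Shares called higher were 28.2% for the former line, against 18.4% for the latter. The 10 genes of the fibroblast list summed to between 6166 and 6394 FPM in NRK-52E at pH 7.4, mostly Col3a1, and to between 1842 and 3203 FPM at pH 6.0. In NRK-49F the sum was 6836 to 7897 FPM at pH 7.4 and 8019 to 9667 FPM at pH 6.0, mostly Col1a1. Pdgfra had a mean of 392 FPM in NRK-49F at pH 7.4 against 0.286 FPM in NRK-52E, and Prrx1 64.9 FPM against 0.0102 FPM. Col3a1 went the other way, at 6221 FPM in NRK-52E against 458 FPM in NRK-49F (3.85 on the log2 scale, edgeR FDR = 8.7e-10). At pH 7.4, 7 of the 9 tested fibroblast markers were called higher in NRK-49F and 1, Col3a1, in NRK-52E. Of all genes tested, 33.3% were called in each direction. Thy1 was at 0 counts in both lines. Of the fibroblast markers, 4 of 6 tested were called lower at pH 6.0 in NRK-52E and 3 of 8 in NRK-49F. None was called higher. In NRK-49F, Col1a1 went from a mean of 6205 to 8288 FPM (0.40 on the log2 scale, edgeR FDR = 0.0103), which was not called. Its acid libraries held at least 6961 FPM and its controls at most 6558 FPM.

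The proximal tubule list was low in both lines. It summed to between 33.5 and 50.3 FPM in NRK-52E at pH 7.4 and between 27.6 and 35.3 FPM at pH 6.0, and to between 21.7 and 34.4 FPM and between 28.6 and 74.3 FPM in NRK-49F, with Aqp1 the most abundant gene. The defining genes Slc34a1 and Hnf4a were at 0 counts in all NRK-52E libraries. In NRK-49F, Slc34a1 was at 0.132 to 0.960 FPM at pH 7.4 and 0.310 to 0.500 FPM at pH 6.0. At pH 6.0, 2 of 4 tested proximal markers were called lower in NRK-52E and 1 of 4 in NRK-49F. None was called higher. Slc22a6 was not tested. In NRK-52E it was at 0 FPM at pH 7.4 and at 0.423 to 2.26 FPM at pH 6.0. In NRK-49F Aqp1 changed by 0.92 on the log2 scale (SE 0.27, edgeR FDR = 0.0128), which was not called. The intercalated cell list summed to at most 12.4 FPM in any library, led in each by Atp6v1b1, the only gene of the list that was tested, which fell in both lines, and Foxi1 was at 0 counts in all 16 libraries. The erythroid list reached at most 12.8 FPM, led by Epb42 in NRK-52E at pH 7.4, with Hbb at 0 counts, and its 2 tested genes fell in NRK-52E. The endothelial list was led by Tek in NRK-52E, with a mean of 41.1 FPM at pH 7.4 and 7.02 FPM at pH 6.0, and that fall was called. Kdr was at 0 counts in all 16 libraries. The leukocyte list summed to between 64.0 and 103 FPM in NRK-52E and between 339 and 390 FPM in NRK-49F, made up of Cd14 and Cd68, with Ptprc at 0 counts in all 16. Of its 2 tested genes, 0 were called in NRK-52E, and in NRK-49F Cd68 rose and Cd14 fell. The part of these marker genes in the results for the SLC4 family was not tested. In bulk RNA, fewer cells of a kind and less RNA per cell cannot be told apart.

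The comparison of pH 6.0 with pH 7.4 within each line asked which members respond to acidosis. In NRK-52E, Slc4a2 and Slc4a3 fell, and Slc4a10 and Slc4a11 rose. In NRK-49F, Slc4a2 and Slc4a3 fell as well, and the rises were in Slc4a4 and Slc4a7. Thus 2 of 6 tested members rose and 2 fell in each line. The share of all 13735 genes tested in NRK-52E that were called was 28.2% higher and 28.5% lower. In NRK-49F, 18.4% of 13339 tested genes were called higher and 19.4% lower. Over the 6 tested members the median log2 fold change was -0.0027 in NRK-52E, against 0.0014 over all genes tested. In NRK-49F it was 0.44 over the members, against -0.0029 over all genes. With library totals in place of TMM, the median over all genes moved to -0.21 in NRK-52E and to 0.04 in NRK-49F. Between the lines it moved to 0.34 at pH 7.4 and 0.12 at pH 6.0, and for the difference between pH effects to -0.25.

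**Figure D1:**
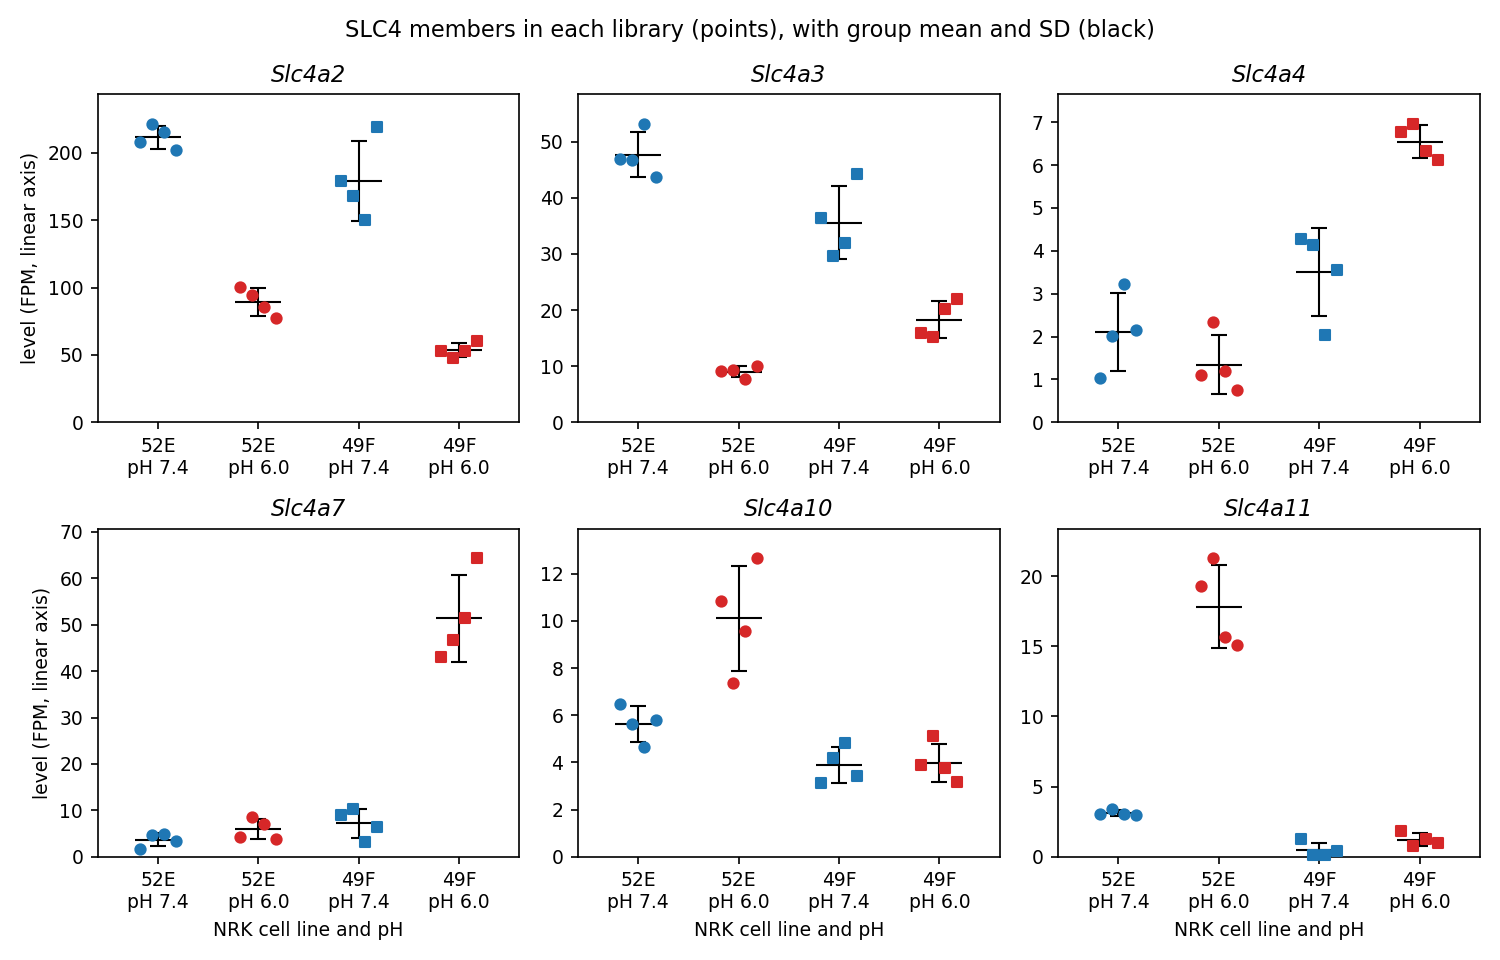
Level of each tested SLC4 member in FPM (linear axis from 0, one scale per gene) in the 4 groups of cell line and pH; points are single libraries, circles for NRK-52E and squares for NRK-49F, blue at pH 7.4 and red at pH 6.0, with mean and SD in black. Slc4a7 is high in NRK-49F at pH 6.0 (43.0 to 64.3 FPM) and Slc4a11 in NRK-52E at pH 6.0 (15.1 to 21.3 FPM).

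Slc4a2 (ENSRNOG00000014347), the broadly used chloride bicarbonate exchanger on chromosome 4, was measured with at least 723 counts in every library. In NRK-52E it stood at 208, 222, 215 and 202 FPM in N1, N2, N5 and N6 at pH 7.4, and at 101, 94.8, 85.5 and 77.2 FPM in N3, N4, N7 and N8 at pH 6.0. The lowest control library was far above the highest acid one, and the spread within each group was small. The mean went from 212 ± 8.56 to 89.5 ± 10.3 FPM (SD, n = 4), a log2 fold change of -1.26 (SE 0.096, edgeR FDR = 1.18e-06). In NRK-49F the values were 179, 168, 150.2 and 219 FPM in N9, N10, N13 and N14 at pH 7.4, and 52.9, 47.9, 53.0 and 60.2 FPM in N11, N12, N15 and N16 at pH 6.0. Again the groups did not overlap, and N14 was the highest of the controls. Slc4a2 in NRK-49F went from 179 ± 29.4 to 53.5 ± 5.06 FPM (SD, n = 4), a log2 fold change of -1.75 (SE 0.12, edgeR FDR = 3.75e-07). Split by column number, NRK-52E gave -1.18 for 21 and -1.38 for 22, and NRK-49F gave -1.78 for 20 and -1.73 for 21.

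The signed log2 fold change of Slc4a2 in NRK-52E minus that in NRK-49F was 0.48 (SE 0.16, edgeR FDR = 0.0173), which did not pass the threshold. It was called without N8 (0.54, edgeR FDR = 0.00669) or N13 (0.56, 0.00671), and it was smaller with library totals (0.24, 0.23) or without N3 (0.31, 0.111). Between the lines at pH 7.4 the Slc4a2 libraries overlapped, and the log2 fold change of NRK-52E over NRK-49F was 0.32 (SE 0.11, edgeR FDR = 0.0149). That difference was not called. Without N14 it was 0.43 with an edgeR FDR of 0.000484, and with library totals in place of TMM 0.63 with an edgeR FDR of 0.000458, and it was called in both. It was smaller within number 21 (0.29, edgeR FDR = 0.24), with all 16 libraries in one fit (0.24, 0.063) and without N13 (0.25, 0.0335). At pH 6.0 every NRK-52E library lay above every NRK-49F library, by 0.73 on the log2 scale (SE 0.12, edgeR FDR = 0.000154). From high to low, the order of the groups for Slc4a2 was NRK-52E at pH 7.4, NRK-49F at pH 7.4, NRK-52E at pH 6.0 and NRK-49F at pH 6.0, and only the leading pair overlapped.

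Slc4a3 (ENSRNOG00000020138), the anion exchanger of excitable tissues, lies on chromosome 9 and had 148 to 1283 counts per library. Its NRK-52E libraries held 47.0, 46.8, 53.2 and 43.7 FPM in N1, N2, N5 and N6 at pH 7.4. At pH 6.0 they held 9.05, 9.31, 7.75 and 9.97 FPM in N3, N4, N7 and N8. All 4 acid libraries were thus well under the controls and close to each other. The mean went from 47.7 ± 3.97 to 9.02 ± 0.931 FPM (SD, n = 4), a log2 fold change of -2.42 (SE 0.13, edgeR FDR = 1.42e-07). NRK-49F had 36.5, 29.7, 31.9 and 44.3 FPM in N9, N10, N13 and N14 at pH 7.4, and 15.98, 15.1, 20.2 and 21.9 FPM in N11, N12, N15 and N16 at pH 6.0. The groups were apart here too, with a narrower gap. In NRK-49F the mean went from 35.6 ± 6.46 to 18.3 ± 3.27 FPM (SD, n = 4), a log2 fold change of -0.97 (SE 0.15, edgeR FDR = 0.000198). Split by column number, Slc4a3 in NRK-52E gave -2.39 for 21 and -2.47 for 22. The NRK-49F libraries gave -1.08 for 20 and -0.88 for 21, and the call was lost in the latter (edgeR FDR = 0.0116).

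The fall of Slc4a3 was larger in NRK-52E. The difference between the pH effects was -1.46 on the log2 scale (SE 0.20, edgeR FDR = 1.33e-05), a called interaction. The order of the lines differed between the 2 pH values. At pH 7.4, NRK-52E was higher by 0.50 (SE 0.12, edgeR FDR = 0.00307), although N6 of NRK-52E (43.7 FPM) lay below N14 of NRK-49F (44.3 FPM; exact permutation p = 0.0571). This call was lost with the column number as a covariate (0.36, edgeR FDR = 0.0955), with all 16 libraries in one fit (0.42, 0.0125), in libraries of number 21 (0.37, 0.134), and without N5 (0.44, edgeR FDR = 0.0112) or N10 (0.42, edgeR FDR = 0.0105). With library totals the difference was larger and was called (0.81, edgeR FDR = 0.000193). At pH 6.0, NRK-52E was lower than NRK-49F in every library, with a log2 fold change of -1.04 (SE 0.17, edgeR FDR = 0.000181).

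**Figure D2:**
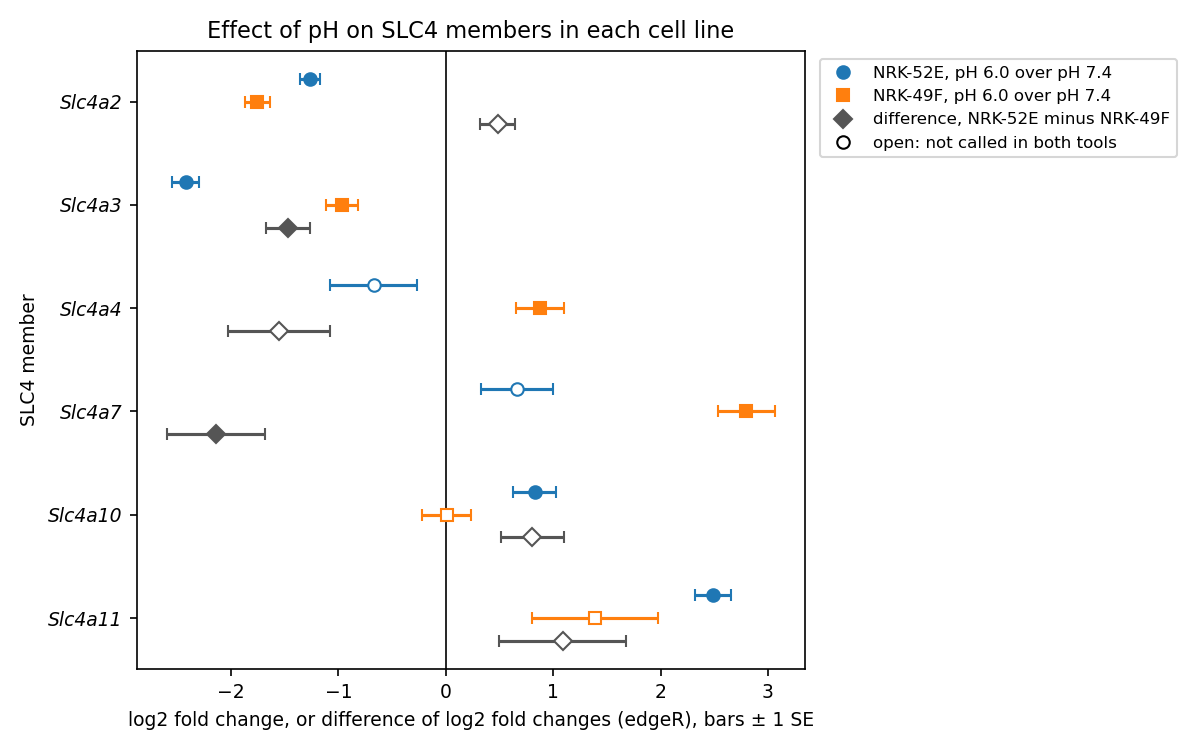
Log2 fold change of pH 6.0 over pH 7.4 for the 6 tested SLC4 members in NRK-52E (blue circles) and NRK-49F (orange squares), and the difference between the lines (grey diamonds), with bars of 1 SE from edgeR; open symbols were not called in both tools. The difference between lines was called for Slc4a3 (-1.46) and Slc4a7 (-2.14).

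Among the sodium-coupled members, Slc4a7 (ENSRNOG00000005957) gave the largest change of the 6 tested members in NRK-49F. This electroneutral cotransporter brings sodium and bicarbonate into cells and lies on chromosome 15. NRK-49F libraries held 9.03, 10.4, 3.23 and 6.44 FPM of Slc4a7 in N9, N10, N13 and N14 at pH 7.4. At pH 6.0 they held 43.0, 46.6, 51.4 and 64.3 FPM in N11, N12, N15 and N16. Every acid library was several times above every control library. The mean went from 7.27 ± 3.15 to 51.3 ± 9.28 FPM (SD, n = 4), a log2 fold change of 2.80 (SE 0.27, edgeR FDR = 4.95e-06). By size of change Slc4a7 ranked 221 among the 13339 genes tested in NRK-49F. The rise was 2.21 on the log2 scale in libraries of column number 20 and 3.53 in those of number 21, and it was called in both.

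In NRK-52E the Slc4a7 values were 1.78, 4.63, 4.85 and 3.43 FPM in N1, N2, N5 and N6 at pH 7.4. They were 4.34, 8.50, 7.05 and 3.90 FPM in N3, N4, N7 and N8 at pH 6.0. Here the groups overlapped, since N3 and N8 were below N2 and N5. The log2 fold change was 0.66 (SE 0.34, edgeR FDR = 0.101) and was not called, with 0.95 in number 21 and 0.38 in number 22. The libraries with more Slc4a7 in each NRK-52E group, N2 and N5 at pH 7.4 and N4 and N7 at pH 6.0, also had the larger totals, with 20612657, 19673671, 21430646 and 23856187 counts. The libraries with less, N1, N6, N3 and N8, had 18591104, 17760185, 16844811 and 20967378 counts, and the part of depth in this spread was not tested. The pH effect on Slc4a7 in NRK-52E minus that in NRK-49F was -2.14 on the log2 scale (SE 0.46, edgeR FDR = 0.000819), a called interaction. Within number 21 alone the difference was -2.57 with an edgeR FDR of 0.0102. Between the lines, Slc4a7 differed by -0.90 at pH 7.4 (SE 0.36, edgeR FDR = 0.0412), with overlapping libraries, and was not called. Without N13, the lowest control of NRK-49F, it was -1.13 with an edgeR FDR of 0.00377 and was called. It was smaller within number 21 (-0.53, edgeR FDR = 0.4) and with library totals (-0.59, 0.17). At pH 6.0 the difference was -3.12 (SE 0.24, edgeR FDR = 2.22e-07), and the 43.0 FPM of N11, the lowest in NRK-49F, stood above the 8.50 FPM of N4, the highest in NRK-52E.

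Slc4a4 (ENSRNOG00000003134), the electrogenic cotransporter through which proximal tubule cells pass bicarbonate to the blood side, was low in all groups, with 16 to 196 counts per library on chromosome 14. In NRK-49F its level was 4.29, 4.14, 2.04 and 3.56 FPM in N9, N10, N13 and N14 at pH 7.4, and 6.77, 6.96, 6.34 and 6.13 FPM in N11, N12, N15 and N16 at pH 6.0. The acid libraries were close together and all above the controls. The mean went from 3.51 ± 1.03 to 6.55 ± 0.384 FPM (SD, n = 4), a log2 fold change of 0.88 (SE 0.22, edgeR FDR = 0.00558). The call was lost on leaving out N11 (0.86, edgeR FDR = 0.0136), N12 (0.84, 0.0161), N14 (0.88, 0.0151) or N15 (0.91, 0.0132). It was also lost with all 16 libraries in one fit (0.88, edgeR FDR = 0.0286) and within number 20 (0.71, 0.0187) or number 21 (1.11, 0.037). In NRK-52E Slc4a4 stood at 1.03, 2.01, 3.23 and 2.14 FPM in N1, N2, N5 and N6 at pH 7.4, and at 1.101, 2.34, 1.19 and 0.752 FPM in N3, N4, N7 and N8 at pH 6.0. These groups overlapped, with a log2 fold change of -0.67 (SE 0.41, edgeR FDR = 0.162), which was not called. The estimate was 0.14 in libraries of number 21 (edgeR FDR = 0.823) and -1.49 in those of number 22 (0.0364), and -1.09 without N4 (0.0326) or -0.41 without N5 (0.418).

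The pH effects on Slc4a4 differed between the lines by -1.55 on the log2 scale (SE 0.47, edgeR FDR = 0.0106), just outside the threshold. With library totals in place of TMM (-1.79, edgeR FDR = 0.00595), without a filter on low counts (-1.53, 0.00883), without N1 (-1.78, 0.00296) and without N4 (-1.96, 0.0016) the difference was called. It was smaller within number 21 (-0.96, edgeR FDR = 0.277), and over single libraries left out it ranged from -1.96 to -1.27, the latter without N5. At pH 7.4 the level of Slc4a4 in NRK-52E over that in NRK-49F was -0.65 on the log2 scale (SE 0.33, edgeR FDR = 0.0925), with overlapping libraries. It was smaller with library totals (-0.346, edgeR FDR = 0.373) or without N1 (-0.432, 0.192), and larger without N5 (-0.949, 0.0245). At pH 6.0 it was -2.29 (SE 0.31, edgeR FDR = 3.31e-05), and no library of NRK-52E reached the NRK-49F range. For Slc4a4, NRK-49F at pH 6.0 was the highest group, and the other 3 groups overlapped.

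Slc4a10 (ENSRNOG00000005307), a sodium-dependent bicarbonate carrier on chromosome 3, had 55 to 269 counts per library. In NRK-52E it was at 6.47, 5.61, 4.64 and 5.81 FPM in N1, N2, N5 and N6 at pH 7.4, and at 10.8, 7.37, 9.59 and 12.6 FPM in N3, N4, N7 and N8 at pH 6.0. The groups did not overlap, with N4 the nearest to the controls. The mean went from 5.63 ± 0.754 to 10.1 ± 2.21 FPM (SD, n = 4), a log2 fold change of 0.83 (SE 0.20, edgeR FDR = 0.0036). This call was lost without N2 (0.82, edgeR FDR = 0.0122), N3 (0.79, 0.011), N5 (0.72, 0.0168) or N6 (0.82, 0.011). It was lost as well with library totals (0.61, edgeR FDR = 0.013) and within number 21 (0.55, 0.125) or number 22 (1.07, 0.0305). In NRK-49F the level of Slc4a10 was 3.14 to 4.81 FPM at pH 7.4 and 3.16 to 5.11 FPM at pH 6.0, with means of 3.90 ± 0.751 and 3.98 ± 0.815 FPM (SD, n = 4). The log2 fold change was 0.0086 (SE 0.23, edgeR FDR = 0.977), with 0.28 within number 20 (0.425) and -0.26 within number 21 (0.605).

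The difference between the pH effects on Slc4a10 was 0.80 on the log2 scale (SE 0.29, edgeR FDR = 0.0292) and was not called, so a larger effect in NRK-52E is not shown. Compared at pH 7.4, NRK-52E was higher than NRK-49F by 0.62 (SE 0.18, edgeR FDR = 0.00883), with N5 of NRK-52E (4.64 FPM) below N13 of NRK-49F (4.81 FPM; exact permutation p = 0.0571). That call was lost with the number as a covariate (0.63, edgeR FDR = 0.0586), with all 16 libraries in one fit (0.53, 0.0299), within number 21 (0.63, 0.107), without a filter on low counts (0.60, 0.0119) and on leaving out N1, N2, N6, N9, N10 or N14 (0.52 to 0.65). At pH 6.0, NRK-52E was higher by 1.34 (SE 0.23, edgeR FDR = 0.000236), without overlap.

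Slc4a11 (ENSRNOG00000021234), the member known as a proton-conducting protein rather than a bicarbonate carrier, also lies on chromosome 3 and showed the largest rise of the family in NRK-52E. Its NRK-52E libraries were at 3.05, 3.44, 3.07 and 2.95 FPM in N1, N2, N5 and N6 at pH 7.4, and at 19.3, 21.3, 15.7 and 15.1 FPM in N3, N4, N7 and N8 at pH 6.0. The controls were tightly grouped and all acid libraries were several times above them. The mean went from 3.13 ± 0.216 to 17.8 ± 2.96 FPM (SD, n = 4), a log2 fold change of 2.49 (SE 0.17, edgeR FDR = 5.14e-07), which ranked 976 by size among the 13735 genes tested. The rise was 2.60 in number 21 and 2.33 in number 22. In NRK-49F Slc4a11 was at 1.26, 0.101, 0.132 and 0.395 FPM in N9, N10, N13 and N14 at pH 7.4, with 22, 2, 2 and 10 counts. It was at 1.86, 0.796, 1.27 and 1.001 FPM in N11, N12, N15 and N16 at pH 6.0, with 42, 12, 39 and 32 counts. The control N9 lay within the range of the acid libraries, so the groups overlapped. The log2 fold change was 1.39 (SE 0.59, edgeR FDR = 0.0637) and was not called, whereas without N9 it was 2.41 (edgeR FDR = 0.00352) and was called. Without N10 it was 1.05 (edgeR FDR = 0.15), and it was 1.06 within number 20 (0.252) and 1.95 within number 21 (0.0411).

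The pH effects on Slc4a11 differed by 1.09 on the log2 scale (SE 0.59, edgeR FDR = 0.132), which was not called. Slc4a11 separated the lines at both pH values. It was higher in NRK-52E by 2.81 at pH 7.4 (SE 0.49, edgeR FDR = 0.000266) and by 3.82 at pH 6.0 (SE 0.27, edgeR FDR = 8.55e-08), with no overlap at either. Without N9 the difference at pH 7.4 was 3.82 (edgeR FDR = 6.64e-06), and that between the pH effects was 0.065 (edgeR FDR = 0.978). Its highest group was NRK-52E at pH 6.0, followed by NRK-52E at pH 7.4, and the 2 NRK-49F groups overlapped at the low end.

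The remaining members were at or near the limit of detection. Slc4a1 (ENSRNOG00000020951), the exchanger of red cells and intercalated cells on chromosome 10, had 3 counts over the NRK-52E libraries at pH 7.4 and 1 count over those at pH 6.0. In NRK-49F it had 0 counts at pH 7.4, which allows a group level of up to 0.0386 FPM (3 counts), and 3 counts at pH 6.0, all in N15. Slc4a5 (ENSRNOG00000010378), the other electrogenic cotransporter, lies on chromosome 4 and had 3, 1, 3 and 3 counts over NRK-52E at pH 7.4 and 6.0 and NRK-49F at pH 7.4 and 6.0. Slc4a8 (ENSRNOG00000028879), the sodium-driven exchanger on chromosome 7, had 0 counts in all 16 libraries, which allows up to 0.00849 FPM over all of them. Such floors cover counting error only. None of these 3 members passed the edgeR filter in any comparison, and the groups overlapped in each.

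Slc4a9 (ENSRNOG00000018525), the exchanger AE4 known from base-secreting intercalated cells, lies on chromosome 18. In NRK-52E it was at 1.92, 1.76, 2.07 and 1.38 FPM in N1, N2, N5 and N6 at pH 7.4, and at 0.795, 0.270, 0.861 and 1.46 FPM in N3, N4, N7 and N8 at pH 6.0. N8 reached into the range of the controls. The log2 fold change was -1.09 (SE 0.40, edgeR FDR = 0.0321) and was not called, whereas without N8 it was -1.51 (edgeR FDR = 0.00357) and was called. Without N4 it was -0.80 (edgeR FDR = 0.0441), and it was -1.88 within number 21 (0.0238) and -0.60 within number 22 (0.327). In NRK-49F there were 7, 2, 1 and 2 counts in N9, N10, N13 and N14 at pH 7.4. All 4 libraries at pH 6.0 had 0 counts, which allows up to 0.0299 FPM over the group. The gene did not pass the edgeR filter for the pH effect there, so it could not be called, and the DESeq2 FDR was 0.0246 (exact permutation p = 0.0286). At pH 7.4, NRK-52E was higher than NRK-49F by 3.55 on the log2 scale (SE 0.43, edgeR FDR = 1.53e-05) without overlap, and by 4.41 without N9 (edgeR FDR = 3.51e-06). At pH 6.0 it had a mean of 0.846 FPM in NRK-52E against 0 in NRK-49F, without overlap (exact permutation p = 0.0286). The gene did not pass the edgeR filter in that comparison either, and the DESeq2 FDR was 1.15e-07.

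Set against each other at pH 7.4, the lines differed in 3 of 6 tested members, Slc4a3, Slc4a10 and Slc4a11, all higher in NRK-52E. Of the 14026 genes tested there, 33.3% were called higher in NRK-52E and 33.3% higher in NRK-49F. Only Slc4a11 among the 3 was without overlap, and with the column number as a covariate, with all 16 libraries in one fit, or within number 21, it was the 1 member called. Number 21 alone occurs in both lines, so between lines the covariate fit and the fit within number 21 estimate the same contrast. At pH 6.0 all 6 tested members differed. Slc4a2, Slc4a10 and Slc4a11 were the 3 higher in NRK-52E, and Slc4a3, Slc4a4 and Slc4a7 the 3 higher in NRK-49F. Of 13796 genes tested at pH 6.0, 28.6% were called higher in NRK-52E and 31.3% higher in NRK-49F. The 6 calls held within number 21 and on leaving out each library in turn.

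The interaction of cell line and pH asked whether the lines responded differently. It was called for 2 of 6 tested members, Slc4a3 and Slc4a7, both with a more positive pH effect in NRK-49F, and for 0 in the other direction. Of 14679 genes tested, 19.3% had a called interaction with the more positive effect in NRK-52E and 17.5% with the more positive effect in NRK-49F. At an FDR below 0.05 in both tools, 5 members had an interaction, and the number of all genes with one went from 5412 to 7369. Within number 21 only Slc4a3 was called, at -1.51 (edgeR FDR = 0.0019).

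Upstream sequence of members that moved together is shown for comparison of their motif content. RefSeq windows of 250 bases before the start (GRCr8) were held for 6 of the 9 members: Slc4a2, Slc4a3, Slc4a4, Slc4a5, Slc4a8 and Slc4a10. The remaining members are Slc4a1, Slc4a7 and Slc4a11. Both strands were searched for GGGCGG (found in 30.5% of 33469 such windows), CACGTG (in 5.59%), TGACNNNGC (in 10.1%) and TGANTCA (in 6.34%). Slc4a2 (chr4:11645403-11645652, minus strand) and Slc4a3 (chr9:84485405-84485654, plus strand) fell in both lines. Slc4a10 (chr3:67073653-67073902, plus strand), which rose in NRK-52E, is set beside them. The GC content was 74.4% for Slc4a2, 68.4% for Slc4a3 and 52.4% for Slc4a10, with a median of 51.2% over all windows. Slc4a2 had 0 matches. Slc4a3 had TGACNNNGC starting 79 bases before the start and, overlapping it on the other strand, GGGCGG from 74 bases before. Slc4a10 had TGANTCA starting 179 bases before. Of the windows not shown, Slc4a5 had 1 match to TGACNNNGC, and Slc4a4 and Slc4a8 had 0. Capitals mark the matches.
Slc4a2: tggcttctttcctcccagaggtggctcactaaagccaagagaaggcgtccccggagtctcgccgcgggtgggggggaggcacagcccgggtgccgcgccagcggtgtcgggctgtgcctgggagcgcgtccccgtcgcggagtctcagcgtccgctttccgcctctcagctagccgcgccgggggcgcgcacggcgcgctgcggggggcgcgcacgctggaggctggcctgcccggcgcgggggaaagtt
Slc4a3: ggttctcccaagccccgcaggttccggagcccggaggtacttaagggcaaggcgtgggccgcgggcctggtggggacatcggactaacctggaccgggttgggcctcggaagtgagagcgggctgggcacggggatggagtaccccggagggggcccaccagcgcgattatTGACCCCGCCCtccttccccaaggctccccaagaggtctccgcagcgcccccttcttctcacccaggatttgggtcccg
Slc4a10: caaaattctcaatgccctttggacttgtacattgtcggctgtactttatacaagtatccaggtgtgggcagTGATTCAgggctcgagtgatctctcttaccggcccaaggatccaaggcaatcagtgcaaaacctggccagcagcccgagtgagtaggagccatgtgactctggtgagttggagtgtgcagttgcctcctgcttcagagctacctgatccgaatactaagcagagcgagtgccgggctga

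Genes of like pattern were sought for Slc4a2, Slc4a3 and Slc4a7, among 11486 genes with a mean of at least 1 FPM. The measure was the root mean square difference of log2(FPM + 1) over the 16 libraries, after each gene's own mean was subtracted. Closest to Slc4a2, whose own SD on this scale was 0.83, were Foxc1 (0.21), Zfpm2 (0.25) and Csf2ra (0.26). Foxc1 had means of 44.7 and 20.95 FPM in NRK-52E at pH 7.4 and 6.0, and 37.3 and 13.9 FPM in NRK-49F. Closest to Slc4a3 (SD 0.93) were Dhodh (0.21), Itfg2 (0.22) and Slx4ip (0.23). Dhodh had means of 19.6 and 4.06 FPM in NRK-52E, and of 12.7 and 6.49 FPM in NRK-49F. Slc4a7 (SD 1.47) had more distant neighbours, among them Abcc1 and Shc4, both at 0.48. With a pseudocount of 0.1 FPM, Ehd2 took the place of Slx4ip and Fam102a that of Shc4. These genes were picked for likeness, which shows no shared control.

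Other genes of acid and base transport were counted from lists, where rose and fell mean called higher and called lower at pH 6.0. Of 11 SLC26 anion exchangers, 6 were tested in NRK-52E, where 1 rose and 1 fell at pH 6.0. Slc26a11 rose by 0.75 on the log2 scale (SE 0.13, edgeR FDR = 0.000451), from 12.47 to 21.4 FPM, and Slc26a8 changed by -1.03 (SE 0.22, edgeR FDR = 0.00163). In NRK-49F, 1 of 5 fell and 0 rose. That gene, Slc26a6, changed by -0.83 (SE 0.14, edgeR FDR = 0.000418), and its interaction was 0.97 (edgeR FDR = 0.000526). Of 9 sodium-proton exchangers, 5 were tested in each line, and 0 rose. Slc9a9 fell in both, from 4.26 to 0.518 FPM in NRK-52E (-3.04, SE 0.22, edgeR FDR = 9.99e-07) and from 10.3 to 1.06 FPM in NRK-49F (-3.31, SE 0.25, edgeR FDR = 1.05e-06).

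Some carbonic anhydrases supply bicarbonate to such carriers. Of 16 listed, 5 were tested in NRK-52E, where 2 rose and 2 fell. Ca13 rose by 0.86 (SE 0.15, edgeR FDR = 0.000356) and Ca14 by 0.85 (SE 0.18, edgeR FDR = 0.00146). Ca9 changed by -1.74 (SE 0.18, edgeR FDR = 1.11e-05), from 972 to 294 FPM, with an interaction of -2.22 (edgeR FDR = 1.42e-06). Ca5b changed by -0.89 (SE 0.14, edgeR FDR = 0.000256). In NRK-49F, 1 of 4 fell and 0 rose: Ca5b, at -1.25 (SE 0.12, edgeR FDR = 4.38e-06).

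Of 15 regulators and partners of bicarbonate transporters, 14 were found in the table and 10 were tested in each line. At pH 6.0, 4 rose and 3 fell in NRK-52E, and 3 rose and 2 fell in NRK-49F. Ahcyl1, which encodes IRBIT, an activator of NBCe1, rose in both lines, from 175 to 442 FPM in NRK-52E (1.32, SE 0.095, edgeR FDR = 8.38e-07) and from 169.9 to 451 FPM in NRK-49F (1.40, SE 0.12, edgeR FDR = 1.95e-06). The scaffold gene Slc9a3r1 fell in both, from 338 to 125 FPM (-1.45, SE 0.10, edgeR FDR = 7.15e-07) and from 121 to 43.0 FPM (-1.51, SE 0.13, edgeR FDR = 2.37e-06). The kinase gene Wnk4 rose in NRK-52E from 3.19 to 15.7 FPM (2.28, SE 0.19, edgeR FDR = 2.13e-06), and its interaction was 2.59 (SE 0.19, edgeR FDR = 7.81e-09). Its level stayed below that of NRK-49F, which had 68.3 FPM at pH 7.4 and 55.3 FPM at pH 6.0. The log2 fold change of NRK-52E over NRK-49F was -4.34 at pH 7.4 and -1.83 at pH 6.0, both called. Ank3 fell in NRK-52E by 0.76 on the log2 scale (SE 0.14, edgeR FDR = 0.000617). In NRK-49F the kinase gene Stk39 rose from 5.20 to 11.8 FPM (1.17, SE 0.19, edgeR FDR = 0.000244). Stk39 had 0 counts in all NRK-52E libraries, which allows up to 0.0330 FPM at pH 7.4 and 0.0356 FPM at pH 6.0 over the group. Ank2 fell in NRK-49F by 1.42 on the log2 scale (SE 0.39, edgeR FDR = 0.00927).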

How the data were processed

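RNA sequencing counts per gene from 16 libraries, 4 in each group of cell line (NRK-52E or NRK-49F) and pH (7.4 or 6.0), were taken as the authors deposited them. The submitters' notes name HISAT2 2.1.0 for alignment to rn6 and featureCounts for counting, whereas the published methods name tophat2, and which was used is not known. Fragments mapping to several places were counted at each, and strand use is not named, so genes with near-identical copies or overlapping genes are uncertain. FPM was computed with edgeR's cpm and TMM factors over all 16 libraries. No gene lengths of the build were held, so FPM was not divided by length.

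Fits used R 4.3.3, edgeR 4.0.16 (quasi-likelihood test, TMM, filterByExpr) and DESeq2 1.42.0 (Wald test), with Benjamini-Hochberg adjustment over all genes tested. Each fit held the 8 libraries of its comparison, and the interaction held all 16. A call needed an FDR below 0.01 in both tools with the same sign. SE was taken as |log2 fold change|/sqrt(F), with edgeR's F. Exact permutation tests were two-sided, over 70 groupings. The procedure was tested on simulated data.

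All members are reported. Of the lists (SLC26 exchangers, sodium-proton exchangers, carbonic anhydrases, and regulators and partners), at most the 2 largest rises and 2 largest falls among called genes per line are named. Marker lists were epithelial, proximal tubule, fibroblast, intercalated cell, erythroid, endothelial and leukocyte. Genes of like pattern are the 3 nearest to each of the 3 members with the highest mean FPM. This rule only picks members with many counts, since levels are not compared between members. Some genes that these rules pick are not reported here. Members and lists were chosen with earlier results of these data known. Alternatives were DESeq2 size factors or library totals, no filter or at least 1 CPM in 4 libraries, an FDR of 0.05, each tool alone, the number in the column names as a covariate or a subset, one fit of all libraries, a pseudocount of 0.1 FPM, and leaving out each library.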

Additional observations from a re-analysis of the deposited data

Results flagged for a closer look

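The pH effect on Slc4a3 differed between the cell lines. The log2 fold change in NRK-52E minus that in NRK-49F was -1.46 (SE 0.20, edgeR FDR = 1.33e-05), with falls in both lines. The pH effect on Slc4a7 differed as well, by -2.14 (SE 0.46, edgeR FDR = 0.000819), with a called rise in NRK-49F and overlapping groups in NRK-52E.

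For Slc4a9 in NRK-49F at pH 7.4, library N9 lay far above the other 3, at 0.400 FPM (7 counts) with the nearest at 0.101 FPM (2 counts). This was 1 of 27 groups of libraries looked at in this way, and chance alone gives about 1 in 20, or 1.35 of 27.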

How the results depend on the processing

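Of 655 log2 fold changes of family genes under alternative settings, 599 kept their direction and their side of the threshold, 20 passed it, 31 no longer passed it and 5 changed sign. In NRK-52E, Slc4a4 was at 0.14 in libraries of number 21 and -1.49 in those of number 22, and the cause was not tested. In NRK-49F, Slc4a10, with a log2 fold change near 0, was at 0.28 within number 20, -0.26 within number 21, -0.083 without N9, -0.13 without N12 and -0.056 without N14 (-0.13 to 0.13 over single libraries left out). These fits have fewer libraries.

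The count of members called for the pH effect in NRK-49F was 4 (5039 of all genes), and 2 within number 21 (1980). Between the lines at pH 7.4 it was 3 (9338 of all genes), against 5 at an FDR of 0.05 (10572), and 1 with the number as a covariate (7417), with all 16 libraries in one fit (8780), within number 21 (5679) or without N10 (8951). For the interaction it was 2 (5412), against 5 at an FDR of 0.05 (7369) and 1 within number 21 (2522). The cause was not tested where the libraries were the same. Over the 48 fits that each left out 1 library, the count was 3 to 4 for the pH effect in NRK-52E and 3 to 5 in NRK-49F. It was 1 to 4 between the lines at pH 7.4, 6 in every fit at pH 6.0, and 2 to 3 for the interaction. With 1 library left out, the largest pH effects moved little. They ranged from -2.49 to -2.34 for Slc4a3 and from 2.38 to 2.56 for Slc4a11 in NRK-52E. Slc4a7 in NRK-49F ranged from 2.57 to 3.02, and it moved further by column number (2.21 within number 20, 3.53 within number 21).

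With library totals, 28 of 34 group means stayed within 1 SD. The 6 that moved were Slc4a2 (251 FPM), Slc4a3 (56.6), Slc4a10 (6.66), Slc4a11 (3.71) and Slc4a9 (2.12) in NRK-52E at pH 7.4, and Slc4a4 (6.05) in NRK-49F at pH 6.0, where the cause is the scaling itself. No paired analysis was possible because the libraries N1 to N16 share no replicate number between groups, and no label pairs the lines by well. The column number, which each line has at both pH values, was used as a covariate: the counts for the pH effects (4 in each line), at pH 6.0 (6) and for the interaction (2) were as without it. Levels per kilobase were not run, since no gene length of the build was held. Counts were low for Slc4a1, Slc4a5 and Slc4a8, and for Slc4a9 and Slc4a11 in NRK-49F. Without N9, which had the most counts of both in its group, the fold change of Slc4a11 in NRK-49F went from 1.39 to 2.41, and that of Slc4a9 between the lines at pH 7.4 from 3.55 to 4.41. An effect of depth on them was not tested.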

Other observations

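Ratios of the counts of 2 members within a library need no scaling. The pairs were chosen after seeing how their members changed, so the ratios restate those changes without scaling, and no p-value is given for them. As they are not corrected for gene length only their change between groups is of use. Slc4a7 per 100 counts of Slc4a2 ranged from 0.855 to 2.25 in NRK-52E at pH 7.4 and from 4.32 to 8.97 at pH 6.0. In NRK-49F the same ratio ranged from 2.15 to 6.18 and from 81.4 to 107 at pH 7.4 and 6.0. Slc4a2 per 100 counts of Slc4a3 changed in opposite directions. It went from between 405 and 473 to between 774 and 1111 in NRK-52E, and from between 471 and 564 to between 262 and 331 in NRK-49F.

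The coefficient of variation of Slc4a7 within groups was 38.3% and 36.9% in NRK-52E at pH 7.4 and 6.0, and 43.3% and 18.1% in NRK-49F. For Slc4a2 it was 4.04%, 11.51%, 16.4% and 9.46% in the same order.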
